A study of Homo sapiens with 12 samples.

Results

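The 43 genes described here encode growth factors, their receptor tyrosine kinases, the relay that carries their signal to the ERK kinases, the inhibitors that damp it, and genes that ERK signalling is known to induce. They were chosen as a list of symbols by function, with earlier results of these data known. They were matched to the identifiers of the gene table, and all 43 were found among its 60671 genes. They comprise 13 ligands, 5 receptors, 3 adaptors or exchange factors, 2 RAS genes, 6 kinases or scaffolds, 9 feedback inhibitors and 5 output genes. Of these, 42 passed the filter on low counts, among 13236 genes tested; the ligand AREG did not.

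The RNA came from BJ-5ta cells, human foreskin fibroblasts made immortal with telomerase, and was read by RNA-seq in 12 libraries. WT_10 and Leo1_10 were grown in 10% serum, and WT_01 and Leo1_01 were kept in 0.1% serum for 10 days to bring the cells to quiescence, a reversible arrest of the cell cycle. WT is the parental line, and Leo1 is ΔLEO1, a single clone in which LEO1, a subunit of the transcription elongation complex PAF1C, was disrupted with CRISPR-Cas9; all cells carry the telomerase transgene. Each group had 3 libraries, and nothing in the labels says that they were separate cultures, so the p-values measure the spread between these libraries. Because the knockout is 1 clone, its difference from the parent cannot be told apart from a difference between a clone and a population.

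A growth factor that binds its receptor makes the receptor phosphorylate itself, which draws in adaptors such as SHC1 and GRB2. The exchange factor SOS1 then loads RAS with GTP, and RAS starts a relay of RAF, MEK and ERK kinases. ERK in turn induces its own inhibitors, among them Sprouty, SPRED and DUSP proteins, so that these genes are often read as a gauge of pathway output in fibroblasts.

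The libraries held 26240632 to 45315560 gene counts, and ERCC spike-in RNA, added in a fixed amount, took 0.625 to 3.24% of each library. Levels are given as ERCC-scaled counts, which are gene counts scaled to a fixed number of spike-in counts (1000000) and follow the RNA yield, or as CPM, counts scaled to a fixed number of gene counts (1000000), which follow the share of a gene among all genes. On the ERCC scale the median gene tested fell by 0.97 on the log2 scale in wild-type cells in low serum and by 1.05 in ΔLEO1 cells, whereas it stood at 0.35 and 0.27 in ΔLEO1 against wild-type cells in 10% and 0.1% serum. With TMM scaling on the gene counts the same medians lay within 0.02 of 0, so a fold change on the TMM scale is relative to the other genes. In bulk RNA, fewer cells and less RNA per cell cannot be told apart. The highest-numbered library of each group (3, 9, 6 and 12) stood apart: pairs of libraries that included it had a chi-square of 66.2 to 144 per gene, against 3.04 to 12.1 for the other pairs. Library 12 also held less ERCC RNA (1.09%) than libraries 10 and 11 (1.88 and 3.24%). LEO1 itself was at 23.3, 23.9 and 23.3 CPM in WT_10 and 29.7, 30.4 and 20.4 CPM in WT_01, and at 1.37, 0.794 and 1.24 CPM in Leo1_10 and 0.661, 1.44 and 1.39 CPM in Leo1_01. All 10 fibroblast markers were detected in every group, summing to 69038 to 99896 CPM. They summed to 98849, 97933 and 71776 CPM in WT_10 and to 78842, 73238 and 98148 CPM in WT_01. In ΔLEO1 cells they summed to 99125, 94582 and 85889 CPM in Leo1_10 and to 69038, 69124 and 99896 CPM in Leo1_01. The 8 epithelial markers summed to at most 1.85 CPM and the 8 endothelial markers to 6.37 to 17.2 CPM. The 8 leukocyte markers summed to 2.01 to 3.01 CPM in wild-type and 3.15 to 9.01 CPM in ΔLEO1 libraries, with at most 2 markers of a group at 1 CPM or more. The 10 proliferation genes summed to 819, 811 and 262 CPM in WT_10 and to 365, 344 and 569 CPM in WT_01; they summed to 879, 969.6 and 528 CPM in Leo1_10 and to 528, 516 and 712 CPM in Leo1_01. On both the fibroblast and proliferation sums, libraries 3, 9, 6 and 12 each differed from their group in the direction of the other serum. The part of these markers and libraries in the results below was not tested.

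To ask how the pathway changed as cells entered quiescence, 0.1% serum was compared with 10% serum in each genotype. In wild-type cells 6 of 42 members rose and 14 fell on the ERCC scale (edgeR likelihood ratio test, adjusted p under 0.05), where 0.944% of all genes rose and 36.1% fell. In ΔLEO1 cells 5 rose and 19 fell, against 0.975% and 47.2% of all genes. SPRY1 and KSR1 rose in both genotypes. FGF10 and IL17RD also passed as higher in both, and PDGFD in wild-type cells, but they were admitted to the test only by groups where they are high: FGF10 and IL17RD were over 1 CPM in 0.1% serum libraries alone, and PDGFD in WT_01 alone. A call on these 3 genes could hardly fall the other way, and without them 3 of 39 members rose in each genotype. FGF1, FGF5, FGF7, MET and SHC1 fell in both, on the ERCC scale and on the TMM scale. The median log2 fold change of the 42 members was -0.67 in wild-type and -1.01 in ΔLEO1 cells, beside -0.97 and -1.05 for all genes. On the TMM scale the split turned: 14 members rose and 9 fell in each genotype, against 16.0% and 16.6% of all genes in wild-type and 16.5% and 12.9% in ΔLEO1 cells. The quasi-likelihood test called 5 higher and 12 lower in wild-type cells, against 0.831% and 27.0% of all genes, and 4 higher and 14 lower in ΔLEO1 cells, against 0.793% and 36.4%. The libraries of the 2 sera did not overlap on the ERCC scale, higher or lower, for 5 and 19 members in wild-type cells (1.16% and 53.4% of all genes) and for 5 and 21 in ΔLEO1 cells (0.846% and 50.9%). The counts of members that fell depended on single libraries: in wild-type cells 14 became 6 without library 1, 8 without library 2, 6 without library 7 and 5 without library 9, and the 6 that rose became 3 without library 2, 3, 7 or 8. In ΔLEO1 cells the 19 that fell became 8 without library 4, 10 or 11, 11 without library 5, and 31 without library 12.

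**Figure D1:**
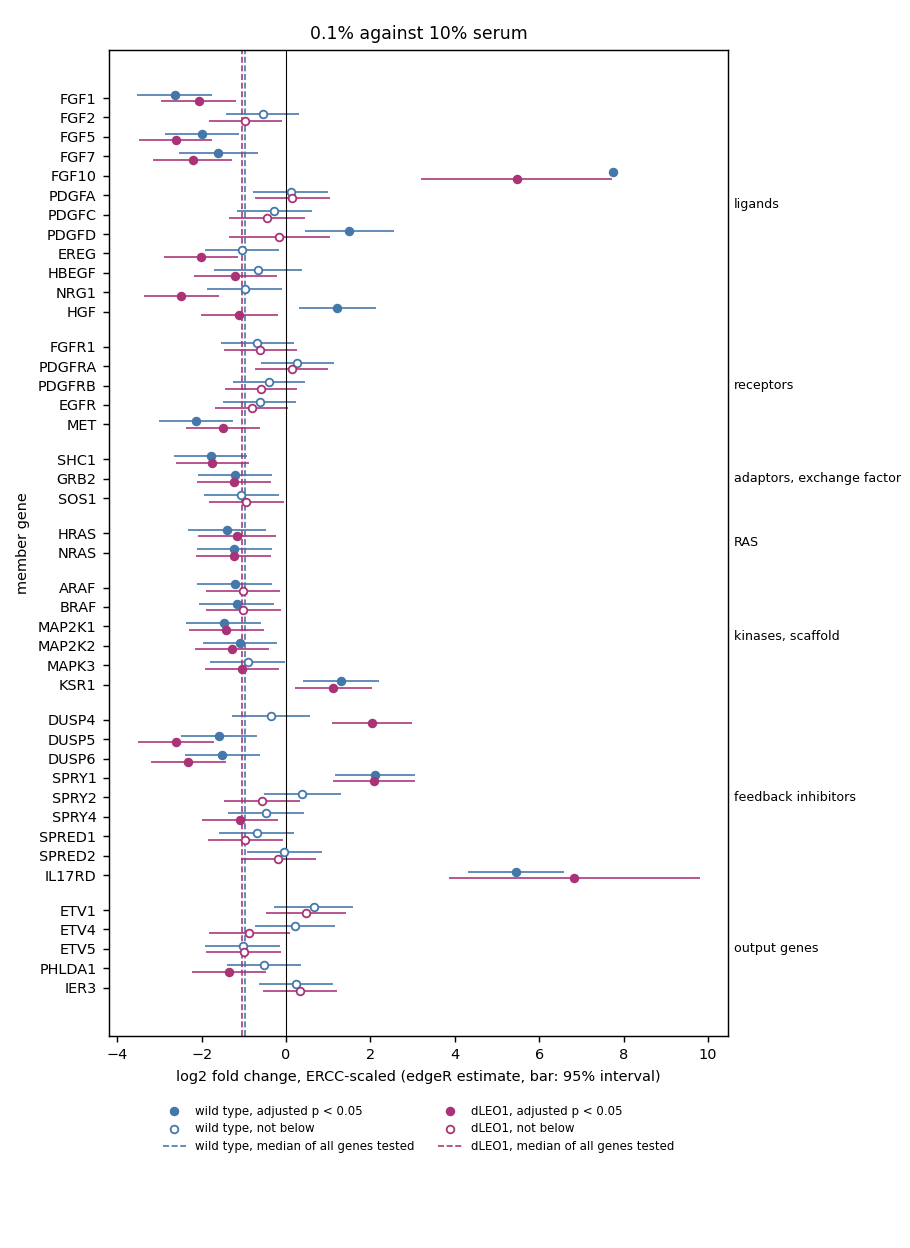
Each row is a member gene that passed the filter, ordered by role. The x axis gives the log2 fold change of 0.1% against 10% serum on the ERCC scale for wild-type (blue) and ΔLEO1 cells (magenta), with 95% intervals from the edgeR fit. Filled points passed an adjusted p of 0.05, and dashed lines mark the median of all genes tested, -0.97 and -1.05. FGF10 in wild-type cells has no bar because its 10% serum libraries held no count. KSR1 and SPRY1 lie to the right of 0 in both genotypes, as do FGF10 and IL17RD, which passed the filter only through 0.1% serum libraries.

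The feedback inhibitors moved in both directions. Of 9, 2 rose and 2 fell in wild-type cells in low serum and 3 rose and 3 fell in ΔLEO1 cells, where 0.944% and 36.1% of all genes did so in wild-type cells and 0.975% and 47.2% in ΔLEO1 cells. On the same scale 7 and 6 of the 9 lay above the median gene. Those that rose were SPRY1 and IL17RD in both genotypes and DUSP4 in ΔLEO1 cells, whereas DUSP5 and DUSP6 fell in both. Their median log2 fold change was -0.35 and -0.58, beside -0.97 and -1.05 for all genes. With TMM, 4 rose and none fell in wild-type cells, where 16.0% and 16.6% of all genes did, and 5 rose and 2 fell in ΔLEO1 cells, against 16.5% and 12.9%. IL17RD counts among those that rose throughout.

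The promoters of FGF10, IL17RD, SPRY1 and KSR1 are shown because these were the 4 genes called higher in both genotypes and on both scales; they were chosen after their values had been seen. Each is the 250 bases before the RefSeq start, read 5′ to 3′ on the gene's strand in GRCh38.p14, and capitals mark the GC box GGGCGG on either strand.
FGF10, chr5:44389421-44389670, minus strand: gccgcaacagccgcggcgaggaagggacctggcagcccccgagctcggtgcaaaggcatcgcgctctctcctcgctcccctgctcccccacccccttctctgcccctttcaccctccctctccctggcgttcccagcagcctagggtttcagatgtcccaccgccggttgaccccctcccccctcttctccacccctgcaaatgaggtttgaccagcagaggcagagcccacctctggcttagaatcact
IL17RD, chr3:57170318-57170567, minus strand: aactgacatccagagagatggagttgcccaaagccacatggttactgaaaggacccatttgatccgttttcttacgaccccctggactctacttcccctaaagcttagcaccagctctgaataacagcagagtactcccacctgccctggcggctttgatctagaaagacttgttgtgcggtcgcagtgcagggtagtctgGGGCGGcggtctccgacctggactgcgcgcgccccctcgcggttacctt
SPRY1, chr4:123396545-123396794, plus strand: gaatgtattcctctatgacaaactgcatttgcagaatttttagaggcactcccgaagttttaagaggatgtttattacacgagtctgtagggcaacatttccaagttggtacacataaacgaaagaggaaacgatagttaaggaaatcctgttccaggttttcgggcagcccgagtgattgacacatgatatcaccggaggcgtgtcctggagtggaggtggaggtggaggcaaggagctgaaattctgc
KSR1, chr17:27456198-27456447, plus strand: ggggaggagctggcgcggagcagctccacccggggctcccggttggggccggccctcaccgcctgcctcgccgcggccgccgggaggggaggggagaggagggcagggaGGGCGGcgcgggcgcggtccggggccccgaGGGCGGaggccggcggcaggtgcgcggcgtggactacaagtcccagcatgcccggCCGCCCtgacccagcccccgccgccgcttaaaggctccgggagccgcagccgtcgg
The IL17RD window held 1 GC box, the KSR1 window 3 and the FGF10 and SPRY1 windows none. Over windows of 300 bases around the start, 68.6% of the 35 members with a RefSeq window held a GC box, beside 44.6% of all 27305 windows. The ETS motif CCGGAAG stood in 8.57% of the member windows (HRAS, NRAS and SHC1) and 10.7% of all windows. The AP-1 motif TGANTCA stood in 2.86% (PDGFRA) and 7.76%, the CRE TGACGTCA in 2.86% (AREG) and 1.98%, the CArG box, the site of serum response factor, in 2.86% (PDGFA) and 1.29%, and the TATA box TATAAA in 5.71% (AREG and EREG) and 12%. All motifs were searched on both strands. These are letter matches only.

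IL17RD (also known as SEF), a membrane protein that restrains FGF receptor signalling, lies at chr3:57089982-57170306 (GRCh38). Its ERCC-scaled counts were 27.7, 29.5 and 7.09 in WT_10, 1063, 1232 and 409 in WT_01, 4.08, 0 and 0 in Leo1_10 and 176, 76.4 and 162 in Leo1_01. It held 0 to 11 counts per library in 10% serum and passed the filter only through the 0.1% serum libraries, and no library of either 0.1% serum group overlapped those in 10% serum. The log2 fold change in low serum was 5.45 (SE 0.58) in wild-type cells. In ΔLEO1 cells 262 counts in Leo1_01 stood against 1 count in Leo1_10, an ERCC-scaled ratio of 129 (95% counting interval 23.0 to 5134). The rise left the ΔLEO1 level below the wild-type level: in 0.1% serum IL17RD was lower in ΔLEO1 cells at a log2 fold change of -2.71 (adjusted p = 1.86e-05, SE 0.51). In 10% serum the 23 counts of WT_10 stood against the 1 of Leo1_10, a ratio of 19.8 (95% counting interval 3.21 to 815; adjusted p = 0.00199).

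SPRY1, a Sprouty protein that blocks receptor signalling to RAS, lies at chr4:123396795-123403760. Its ERCC-scaled counts were 840.1, 708 and 282 in WT_10, 2851, 3678 and 1334 in WT_01, 159, 113 and 80.7 in Leo1_10 and 504, 273 and 717 in Leo1_01. Every low-serum library was above every 10% serum library of its genotype, and every ΔLEO1 library was below the wild-type libraries in the same serum. The rise in low serum was 2.11 (adjusted p = 5.74e-04, SE 0.48) in wild-type and 2.09 (adjusted p = 0.00136, SE 0.50) in ΔLEO1 cells on the log2 scale. The level in ΔLEO1 against wild-type cells was -2.38 (adjusted p = 1.27e-04, SE 0.50) in 10% serum and -2.40 (adjusted p = 7.22e-05, SE 0.48) in 0.1% serum. The interaction of genotype and serum was -0.02 (95% interval -1.38 to 1.34), an interval that spans a difference of over 1 log2 unit either way. SPRY1 thus rose in low serum in both genotypes, from and to a lower level in ΔLEO1 cells.

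DUSP4, a nuclear phosphatase that acts on ERK, had ERCC-scaled counts of 3163, 2923 and 1539.6 in WT_10, 1924, 2513 and 1553 in WT_01, 277, 172 and 64.1 in Leo1_10 and 865, 353 and 881 in Leo1_01. The Leo1_10 libraries were far below the other groups, with 27 to 68 counts against 869 to 1090 in WT_10. In 10% serum ΔLEO1 cells stood at a log2 fold change of -3.91 (adjusted p = 2.6e-11, SE 0.48) against wild type, and in 0.1% serum at -1.51 (adjusted p = 0.0256, SE 0.47). DUSP4 rose in low serum in ΔLEO1 cells (2.04, adjusted p = 0.00124, SE 0.48), and its log2 fold change in wild-type cells was -0.35 (adjusted p = 0.502, SE 0.47). The difference between these responses, 2.39 (SE 0.68), did not pass on the ERCC scale (adjusted p = 0.137) and passed on the TMM scale at 2.62 (adjusted p = 4.28e-08). The 0.1% serum call between the genotypes was lost without library 7, 8, 10 or 11, with values from -1.67 to -1.19.

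DUSP5, another nuclear ERK phosphatase, had ERCC-scaled counts of 1767, 1545 and 2875 in WT_10, 762, 945 and 352 in WT_01, 7352, 5606 and 5597 in Leo1_10 and 1098, 673 and 1275 in Leo1_01. The 10% serum libraries were the higher ones in both genotypes, and Leo1_10 was above WT_10. It fell in low serum by a log2 fold change of -1.59 (adjusted p = 0.00685, SE 0.46) in wild-type and -2.61 (adjusted p = 7.01e-06, SE 0.46) in ΔLEO1 cells. It was higher in ΔLEO1 cells in 10% serum, at 1.58 (adjusted p = 0.0114, SE 0.46). The wild-type fall lost its call without library 9 (-1.27) and the genotype difference without library 1, 2 or 4 (1.41 to 1.52).

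DUSP6, a cytoplasmic ERK phosphatase, had ERCC-scaled counts of 6081, 4819 and 3419 in WT_10, 2018, 2391 and 596 in WT_01, 12666, 8779 and 6439 in Leo1_10 and 2037, 1377 and 2177 in Leo1_01. It fell in low serum in wild-type cells (-1.52, adjusted p = 0.00864, SE 0.45) and in ΔLEO1 cells (-2.32, adjusted p = 6.1e-05, SE 0.45). Relative to the other genes its log2 fold change was -0.63 (adjusted p = 0.125) and -1.04 (adjusted p = 0.00738) on the TMM scale. The wild-type call was lost without library 1 or 9 (-1.32 and -1.11). An opposite-strand gene covers 40.5% of the DUSP6 exons, and the strand setting of the counting is not given in the sources used here.

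SPRY4, a further Sprouty gene, had ERCC-scaled counts of 2908, 2550.0 and 2282 in WT_10, 1989, 2476 and 1106 in WT_01, 6492, 5153 and 4588 in Leo1_10 and 2535, 1549 and 3526 in Leo1_01. It fell in ΔLEO1 cells (-1.09, adjusted p = 0.0419, SE 0.46), a call lost without library 2, 4, 5, 7, 10 or 11 (-1.14 to -0.84), while its TMM value was 0.05. SPRY2, SPRED1 and SPRED2 passed in no comparison on the ERCC scale. SPRED2, which binds RAS pathway proteins at the membrane, stood at 40.9 ± 0.259 CPM in WT_10 and 82.3 ± 2.47 in WT_01 (SD, n = 3), and at 44.3 ± 5.43 and 85.9 ± 1.56 CPM in Leo1_10 and Leo1_01. On the TMM scale this was a log2 fold change of 0.92 (adjusted p = 1.79e-14) and 0.90 (adjusted p = 9.35e-14). SPRY2 stood at 16.8 ± 3.22 and 44.1 ± 1.33 CPM in wild-type cells and at 21.7 ± 1.24 and 30.4 ± 4.36 CPM in ΔLEO1 cells. SPRED1 ranged from 69.6 ± 4.77 CPM in Leo1_10 to 91.1 ± 9.67 CPM in WT_01.

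**Figure D2:**
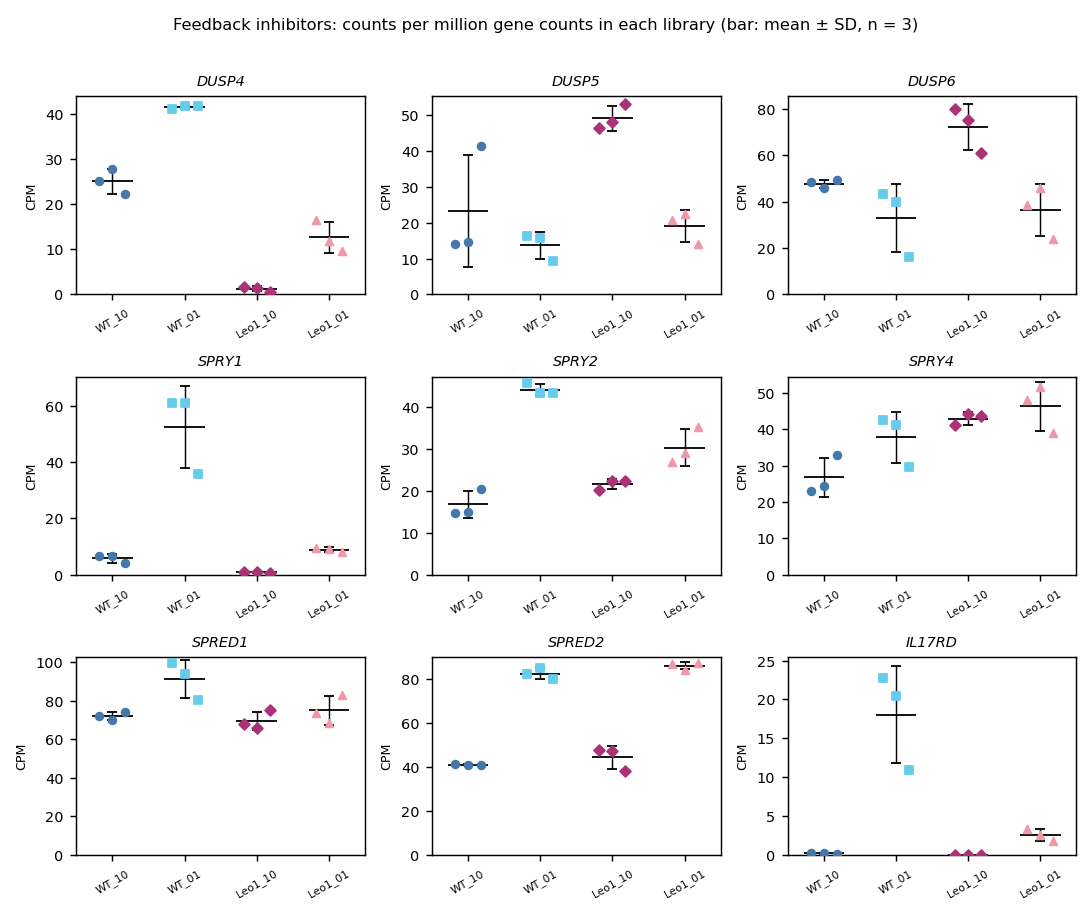
Each panel gives 1 feedback inhibitor, with CPM on the y axis from 0 and the 4 groups on the x axis. Points are libraries, and bars are the mean and SD of 3. DUSP4, SPRY1 and IL17RD lie below the wild-type libraries of the same serum in ΔLEO1. SPRY1, IL17RD, DUSP4, SPRY2 and SPRED2 are higher in 0.1% serum in both genotypes, as is SPRED1 in wild-type cells. DUSP6 is lower in 0.1% serum in both genotypes, as is DUSP5 in ΔLEO1 cells. IL17RD passed the filter only through 0.1% serum libraries.

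Among the ligands 3 of 12 tested rose and 3 fell in wild-type cells in low serum, against 0.944% and 36.1% of all genes, and 1 rose and 7 fell in ΔLEO1 cells, against 0.975% and 47.2%. FGF1, FGF5 and FGF7 fell in both genotypes. The counts of ligands that rose rest on HGF in wild-type cells and, beside it, on FGF10 and PDGFD, which passed the filter only through groups where they are high. The median was -0.61 and -1.16, beside -0.97 and -1.05 for all genes. With TMM, 5 rose and 3 fell in wild-type cells, against 16.0% and 16.6% of all genes, and 3 rose and 5 fell in ΔLEO1 cells, against 16.5% and 12.9%.

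FGF1, a broadly acting FGF that binds all FGF receptors, had ERCC-scaled counts of 5483, 4939 and 5763 in WT_10, 768, 1029.9 and 805 in WT_01, 8910.0, 6864 and 8955 in Leo1_10 and 1558, 919.8 and 3397 in Leo1_01. It fell by a log2 fold change of -2.64 (adjusted p = 2.68e-06, SE 0.45) in wild-type and -2.08 (adjusted p = 4.20e-04, SE 0.45) in ΔLEO1 cells, with no overlap between the sera. FGF5, known as an inhibitor of hair growth, had ERCC-scaled counts of 23416, 19891 and 10038 in WT_10, 4863, 5839 and 2671 in WT_01, 26449, 21740.1 and 11072 in Leo1_10 and 2982, 1882 and 4767 in Leo1_01. Its fall was -2.0 (adjusted p = 3.93e-04, SE 0.45) and -2.62 (adjusted p = 3.06e-06, SE 0.45), again without overlap. FGF7, or keratinocyte growth factor, had ERCC-scaled counts of 1248, 1091 and 1024 in WT_10, 314, 412 and 377 in WT_01, 3495, 2548 and 1806 in Leo1_10 and 392, 305 and 995 in Leo1_01. It fell by a log2 fold change of -1.61 (adjusted p = 0.00852, SE 0.48), a call lost without library 7 (-1.51), and by -2.22 (adjusted p = 3.35e-04, SE 0.48). Stretches of 58 bases shared with other transcripts covered 8.14% of FGF7.

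FGF10, a ligand of FGFR2 made by mesenchymal cells, had no count in WT_10 and 0, 0 and 2 counts in Leo1_10. Its ERCC-scaled counts were 51.5, 64.4 and 35.6 in WT_01 and 136, 54.3 and 87.4 in Leo1_01, from 28 to 90 counts per library. It was at least 6.38-fold higher in WT_01, with 3 counts in each WT_10 library taken as the floor. In ΔLEO1 cells 183 counts stood against 2, an ERCC-scaled ratio of 45.2 (95% counting interval 12.3 to 376). FGF10 passed the filter through 2 libraries of each 0.1% serum group, so no p-value is given for its serum response. Its level was 0.346 ± 0.025 RPKM (CPM per kilobase of exon; SD, n = 3) in WT_01.

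HGF, the ligand of MET, had ERCC-scaled counts of 1400.2, 1150.3 and 484 in WT_10, 2356, 3108 and 1548 in WT_01, 3817, 2955 and 1377 in Leo1_10 and 1422, 782 and 1562 in Leo1_01. WT_01 was above WT_10 in every library, and Leo1_01 overlapped Leo1_10. HGF rose in wild-type cells (1.21, adjusted p = 0.0361, SE 0.47) and fell in ΔLEO1 cells (-1.11, adjusted p = 0.0422, SE 0.46), where its TMM value was 0.12 (adjusted p = 0.781). The difference between the responses was -2.32 (adjusted p = 0.138, SE 0.66) on the ERCC scale and -2.10 (adjusted p = 1.53e-05) on the TMM scale. In 10% serum HGF was higher in ΔLEO1 cells, with overlapping libraries on the ERCC scale, at 1.43 (adjusted p = 0.0331, SE 0.47). These ERCC-scale calls were not firm: the wild-type rise was lost without library 1, 2, 3, 5, 7, 8 or 9 (0.87 to 1.5), the ΔLEO1 fall without library 2, 4, 5, 7, 10 or 11 (-1.22 to -0.80) and the genotype difference without library 2, 3, 4, 5 or 7 (1.09 to 1.53). The quasi-likelihood test called none of the 3, with adjusted p of 0.0515, 0.0572 and 0.0526.

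NRG1, a ligand of ERBB3 and ERBB4, had ERCC-scaled counts of 8308, 6609.7 and 4055 in WT_10, 3719, 4566 and 1334 in WT_01, 6463, 5063 and 4628 in Leo1_10 and 615, 395 and 1889 in Leo1_01. Libraries 10 and 11 of Leo1_01 were the lowest, and library 12 overlapped WT_01. NRG1 fell in ΔLEO1 cells in low serum (-2.48, adjusted p = 1.63e-05, SE 0.45), and its log2 fold change in wild-type cells was -0.98 (adjusted p = 0.0693, SE 0.45). It was lower in ΔLEO1 cells in 0.1% serum, at -1.73 (adjusted p = 0.00414, SE 0.45), a call lost without library 8 or 10 (-1.47 and -1.39). The interaction was -1.50 (adjusted p = 1, SE 0.64) on the ERCC scale and -1.50 (adjusted p = 0.00353) on the TMM scale.

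PDGFD, a ligand of PDGFRB, was scarce, with 5 to 28 counts per library outside WT_01 and 74 to 236 in it. Its ERCC-scaled counts were 93.3, 69.7 and 49.6 in WT_10, 160.0, 170.1 and 263 in WT_01, 61.2, 18 and 11.9 in Leo1_10 and 22.7, 17.5 and 38.5 in Leo1_01. It passed the filter only through the WT_01 libraries, so it is described without a p-value. The log2 fold change in low serum was 1.49 (SE 0.54) in wild-type cells, and in 0.1% serum ΔLEO1 cells stood at -2.95 (SE 0.55) against wild type. The serum call was lost without library 1, 2 or 3 (1.28 to 1.74). EREG, an EGF receptor ligand, had ERCC-scaled counts of 4709, 4432 and 7863 in WT_10, 3146, 3235 and 1885 in WT_01, 14366, 13706 and 9983 in Leo1_10 and 1757, 849 and 6761 in Leo1_01. It fell in ΔLEO1 cells (-2.02, adjusted p = 5.41e-04, SE 0.45), and library 12 stood above libraries 10 and 11.

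**Figure D3:**
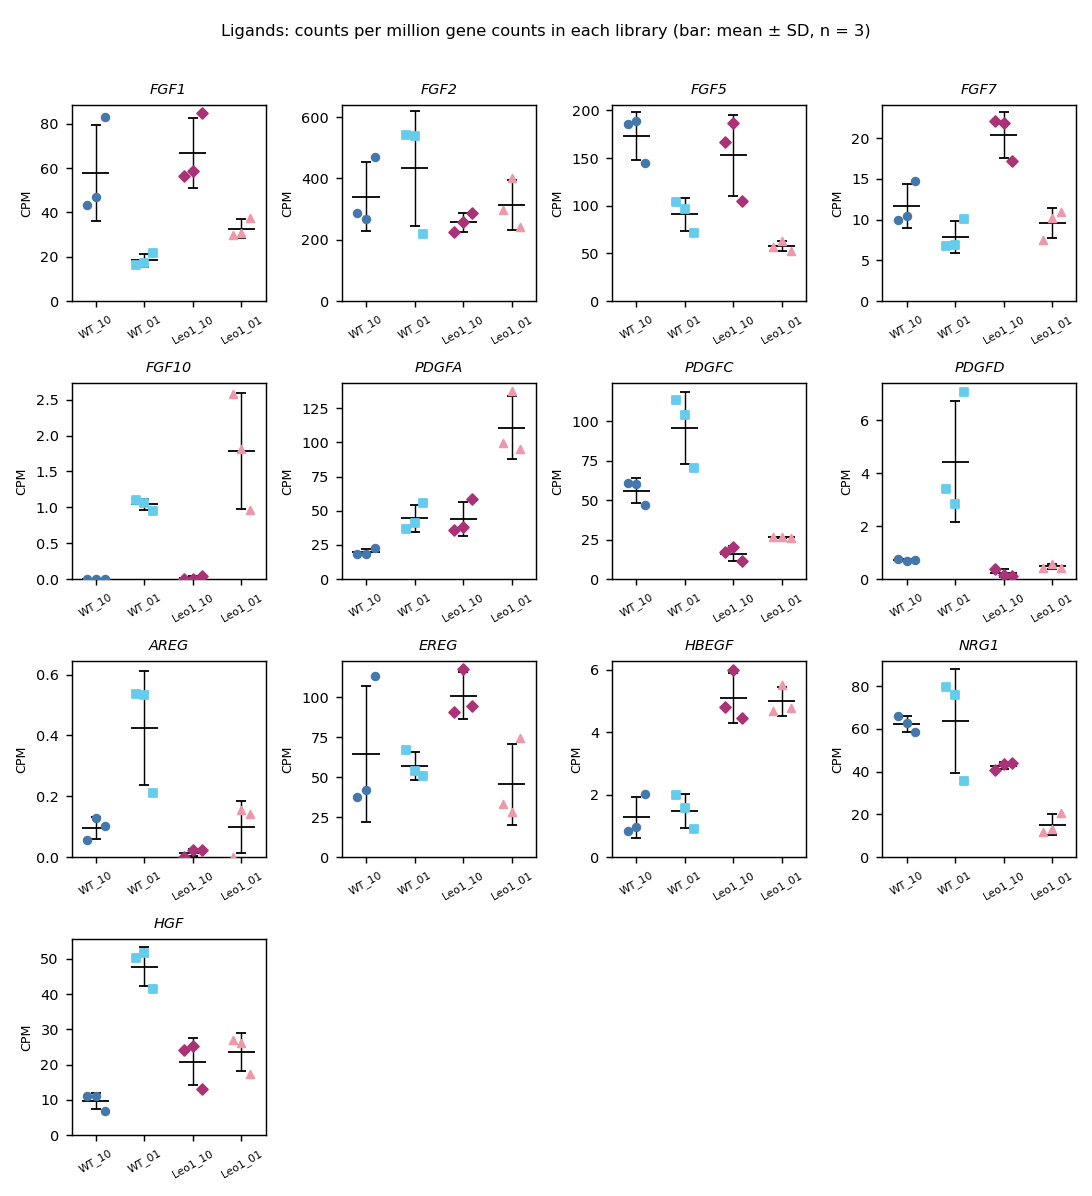
Each panel gives 1 of 13 ligands, with CPM on the y axis from 0 and the 4 groups on the x axis. Points are libraries, and bars are the mean and SD of 3. FGF1 and FGF5 are lower in 0.1% serum in both genotypes, PDGFC is lower and HBEGF and PDGFA are higher in ΔLEO1 than in wild-type libraries in the same serum, and NRG1 is lowest in Leo1_01.

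HBEGF, an EGF receptor ligand shed from the membrane, had ERCC-scaled counts of 104, 102 and 140.0 in WT_10, 93.2, 94.3 and 33.4 in WT_01, 763, 699 and 469.9 in Leo1_10 and 247, 165 and 432 in Leo1_01. All ΔLEO1 libraries were above the wild-type libraries. It was higher in ΔLEO1 cells by 2.47 (adjusted p = 1.24e-04, SE 0.52) in 10% serum and by 1.94 (adjusted p = 0.00539, SE 0.52) in 0.1% serum on the log2 scale, the latter lost without library 9 (1.58). It also fell in ΔLEO1 cells in low serum (-1.20, adjusted p = 0.0438, SE 0.51), lost without library 2, 4, 5, 7, 8, 10 or 11 (-1.20 to -0.93), with a TMM value of -0.09.

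PDGFA, which binds PDGFRA, had ERCC-scaled counts of 2316, 1925 and 1564 in WT_10, 1708, 2489.7 and 2068 in WT_01, 5656, 4413 and 6147 in Leo1_10 and 5250.5, 4114 and 8650.0 in Leo1_01. The ΔLEO1 libraries were again all above the wild-type libraries in the same serum. On the log2 scale the difference was 1.48 (adjusted p = 0.019, SE 0.45) in 10% serum and 1.52 (adjusted p = 0.0166, SE 0.45) in 0.1% serum. The first was lost without library 2, 3, 4 or 6 (1.35 to 1.48) and the second without library 7 or 9 (1.40 to 1.52). In low serum PDGFA did not pass on the ERCC scale (0.11 and 0.15), and relative to the other genes it rose by 1.09 (adjusted p = 5.29e-05) and 1.27 (adjusted p = 1.52e-06).

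PDGFC, a further PDGFRA ligand, had ERCC-scaled counts of 7716, 6347 and 3249 in WT_10, 5322, 6271 and 2614 in WT_01, 2732, 2348 and 1175 in Leo1_10 and 1392, 805 and 2367 in Leo1_01. Here the ΔLEO1 libraries were all below the wild-type libraries in the same serum. The log2 difference was -1.47 (adjusted p = 0.021, SE 0.46) in 10% serum and -1.64 (adjusted p = 0.00803, SE 0.45) in 0.1% serum, lost without library 1, 2, 5 or 6 (-1.56 to -1.18) and without library 7, 8 or 10 (-1.55 to -1.38). The 22 other tested genes within 5 Mb of PDGFC, at chr4:156760454-156971394, had a median log2 fold change of -0.59 and -0.55 relative to all genes in these comparisons. Near SPRY1, on the same chromosome, the 33 neighbours stood at -0.31 and -0.39, near IL17RD the 48 neighbours at -0.32 and -0.23, and near DUSP4 the 37 neighbours at 0.02 and 0.07. Among members called higher in ΔLEO1 cells, the 16 neighbours of HGF stood at 0.25 and 0.37. In each serum 4 of these 16 were called higher, against 4.2% and 3.85% of all genes. The medians were 0.05 and 0.01 near HBEGF, 0.03 and 0.02 near PDGFA, and 0.02 and 0.26 near DUSP5. Whether the number of copies of these regions differs in the clone was not tested.

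FGF2, a widely expressed FGF, passed in no comparison; it was the ligand with the highest level per length in every group, at 50.4 ± 16.7 RPKM in WT_10, 63.9 ± 27.5 in WT_01, 38 ± 4.55 in Leo1_10 and 46.1 ± 12 in Leo1_01. AREG, an EGF receptor ligand that did not pass the filter, held 2 to 5 counts in WT_10, 7 to 18 in WT_01, 0 to 1 in Leo1_10 and 0 to 5 in Leo1_01.

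The receptors were led by PDGFRB, at 98.4 ± 3.06 RPKM in WT_10, 153 ± 20.8 in WT_01, 83.9 ± 6.56 in Leo1_10 and 121 ± 4.19 in Leo1_01. PDGFRA followed at 37.9 ± 8.56, 96.7 ± 20.1, 34.7 ± 5.94 and 88.3 ± 14.2 RPKM. FGFR1, EGFR and MET lay close together in WT_10, at 24.1 ± 0.968, 19.6 ± 0.945 and 22.5 ± 3.42 RPKM, where MET and its neighbours in the order differed by less than the SD of MET. In WT_01 they were at 30.5 ± 4.57, 25.7 ± 5.64 and 10.8 ± 1.2 RPKM. Transcripts of another gene on the same strand cover 15.8% of the PDGFRA exons, so its level is uncertain to that extent.

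Of the 5 receptors MET, the HGF receptor, fell in low serum and none rose on the ERCC scale, in either genotype. On this scale 36.1% of all genes fell and 0.944% rose in wild-type cells, beside 47.2% and 0.975% in ΔLEO1 cells. The receptor median was -0.62 in each genotype, beside -0.97 and -1.05 for all genes, and 4 of 5 lay above the median gene. The ERCC-scaled counts of MET were 20899, 18639 and 9107 in WT_10, 3919, 4637 and 2497 in WT_01, 19606, 14576 and 9575 in Leo1_10 and 4290.3, 2446 and 8689 in Leo1_01. It changed by -2.14 (adjusted p = 1.41e-04, SE 0.45) on the log2 scale in wild-type and -1.50 (adjusted p = 0.00993, SE 0.45) in ΔLEO1 cells, the latter lost without library 4, 10 or 11 (-1.40 to -1.17). The TMM interaction was 0.69 (adjusted p = 0.0481), and on the ERCC scale it was 0.63 (adjusted p = 1, SE 0.63). FGFR1, PDGFRA, PDGFRB and EGFR passed in no comparison on the ERCC scale. Relative to the other genes (TMM) PDGFRA rose by 1.27 (adjusted p = 4.16e-07) and 1.29 (adjusted p = 2.58e-07) and PDGFRB by 0.55 (adjusted p = 1.27e-04) and 0.46 (adjusted p = 0.00178), both receptors for PDGF. The ERCC-scale values were 0.27 and 0.13 for PDGFRA and -0.41 and -0.59 for PDGFRB. FGFR1 also passed as higher on the TMM scale in ΔLEO1 cells, with 16 ± 1.21 RPKM in Leo1_10 and 24.5 ± 4.67 in Leo1_01.

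**Figure D4:**
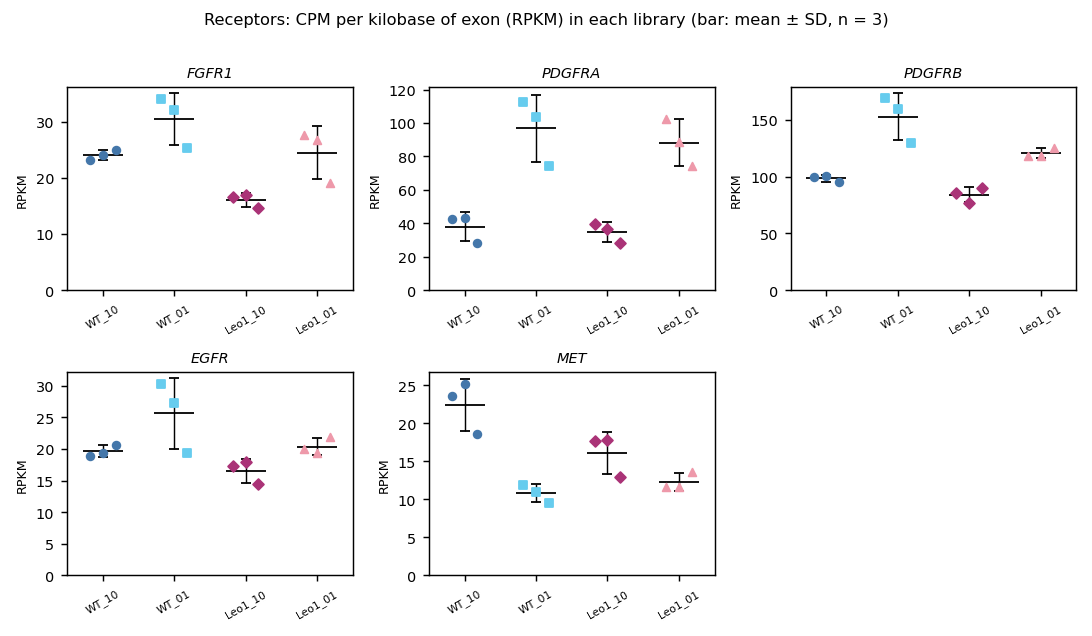
Each panel gives 1 receptor, with RPKM on the y axis from 0 and the 4 groups on the x axis. Points are libraries, and bars are the mean and SD of 3. FGFR1, PDGFRA and PDGFRB are higher per gene count in 0.1% serum in both genotypes, as is EGFR in ΔLEO1 cells, and MET is lower in WT_01 than in WT_10.

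The adaptor SHC1 had ERCC-scaled counts of 42966, 36357 and 27279 in WT_10, 10070.0, 14272 and 6644 in WT_01, 55491, 40759 and 34247 in Leo1_10 and 12402, 7099.8 and 19420.2 in Leo1_01. It fell in low serum by a log2 fold change of -1.78 (adjusted p = 0.00143, SE 0.44) in wild-type and -1.75 (adjusted p = 0.00256, SE 0.44) in ΔLEO1 cells, without overlap between the sera and on both scales. GRB2, which links receptors to SOS1, had ERCC-scaled counts of 13299.8, 11064 and 7927 in WT_10, 4538, 5871 and 3524 in WT_01, 19773, 14717 and 13277 in Leo1_10 and 6233, 3433 and 10649 in Leo1_01. It fell by a log2 fold change of -1.21 (adjusted p = 0.03, SE 0.45) and -1.23 (adjusted p = 0.0254, SE 0.45), near the median gene, with TMM values of -0.26 and -0.17. The GRB2 calls were lost without library 1, 2, 7 or 9 (-1.20 to -1.04) and without library 4, 5, 10 or 11 (-1.30 to -0.92). SOS1, the exchange factor, had log2 fold changes of -1.06 and -0.94 that did not pass.

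HRAS and NRAS, the GTPases, fell in both genotypes. The ERCC-scaled counts of HRAS were 2672, 2108 and 1541 in WT_10, 708, 1023 and 656 in WT_01, 2846, 2127 and 1599.7 in Leo1_10 and 983, 510.1 and 1452 in Leo1_01. Its log2 fold change was -1.41 (adjusted p = 0.0181, SE 0.47) in wild-type and -1.16 (adjusted p = 0.0381, SE 0.47) in ΔLEO1 cells, lost without library 1, 2, 7 or 9 (-1.41 to -1.21) and without library 2, 4, 5, 7, 10 or 11 (-1.19 to -0.85). NRAS stood at ERCC-scaled counts of 9476, 7894 and 5783 in WT_10, 3497, 4159 and 2238 in WT_01, 11724, 9191 and 7187 in Leo1_10 and 3535, 2096 and 6237 in Leo1_01. Its log2 fold change was -1.23 (adjusted p = 0.0292, SE 0.45) and -1.24 (adjusted p = 0.0252, SE 0.45), lost without library 1, 2, 7 or 9 (-1.27 to -1.01) and without library 4, 5, 10 or 11 (-1.27 to -0.94). Relative to the other genes both also fell in wild-type cells, at TMM values of -0.44 (adjusted p = 0.00744) for HRAS and -0.28 (adjusted p = 0.0451) for NRAS, whereas in ΔLEO1 cells their values were -0.05 (adjusted p = 0.829) and -0.16 (adjusted p = 0.301).

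Most kinases moved close to the median gene, MAP2K1 had the lowest values in both genotypes, and the scaffold KSR1 moved the other way. Of 6, 1 rose and 4 fell in wild-type cells, against 0.944% and 36.1% of all genes, and 1 rose and 3 fell in ΔLEO1 cells, against 0.975% and 47.2%. Their median log2 fold change was -1.13 and -1.03, beside -0.97 and -1.05 for all genes. On the TMM scale 1 rose (KSR1) and 1 fell (MAP2K1) in wild-type cells, where 16.0% and 16.6% of all genes did. In ΔLEO1 cells 1 rose (KSR1) and none fell, against 16.5% and 12.9%.

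KSR1, a scaffold that holds RAF, MEK and ERK together, had ERCC-scaled counts of 2631, 1786 and 751 in WT_10, 5036, 6170.3 and 1434 in WT_01, 1154, 846 and 935 in Leo1_10 and 2578, 1890.3 and 1917 in Leo1_01. Library 9 was the lowest in WT_01 and overlapped WT_10. It rose by 1.29 (adjusted p = 0.0256, SE 0.46) in wild-type and 1.12 (adjusted p = 0.0403, SE 0.46) in ΔLEO1 cells on the log2 scale, and by 2.26 (adjusted p = 5.1e-06) and 2.46 (adjusted p = 8.83e-07) relative to the other genes. The ERCC-scale calls were lost without library 2, 3, 7 or 8 (0.91 to 1.32) and without library 2, 4, 5, 6, 7, 10 or 11 (0.96 to 1.24).

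MAP2K1, which encodes the kinase MEK1, had ERCC-scaled counts of 8456, 7395 and 6158 in WT_10, 2481, 3441 and 1950.2 in WT_01, 9322, 7098 and 6759.7 in Leo1_10 and 2700.2, 1620.5 and 4382 in Leo1_01. It fell by a log2 fold change of -1.48 (adjusted p = 0.00999, SE 0.45) and -1.41 (adjusted p = 0.0147, SE 0.45), lost without library 1, 7 or 9 (-1.44 to -1.31) and without library 4, 10 or 11 (-1.37 to -1.13). MAP2K2, for MEK2, had ERCC-scaled counts of 13355, 11544 and 7673 in WT_10, 4708, 6255 and 4386 in WT_01, 19985, 15275 and 13094 in Leo1_10 and 6306, 3494 and 10171 in Leo1_01. It fell by a log2 fold change of -1.09 (adjusted p = 0.0469, SE 0.45), lost without library 1, 2, 5, 6, 7, 8, 9 or 10 (-1.26 to -0.92), and by -1.28 (adjusted p = 0.0224, SE 0.45), lost without library 4, 10 or 11 (-1.24 to -0.97). The median gene stood at -0.97 and -1.05.

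ARAF, a RAF kinase, had ERCC-scaled counts of 6054, 5312 and 3673 in WT_10, 2167, 2713 and 1591 in WT_01, 7617, 6141 and 5606 in Leo1_10 and 2715, 1367 and 5458 in Leo1_01. BRAF, its relative, had ERCC-scaled counts of 4750.2, 3818 and 2649 in WT_10, 1926, 1986 and 1055 in WT_01, 4734, 3742 and 3475 in Leo1_10 and 1428, 825 and 3672 in Leo1_01. Both fell in wild-type cells, at -1.22 (adjusted p = 0.0313, SE 0.45) and -1.18 (adjusted p = 0.0376, SE 0.46), lost without library 1, 2, 7 or 9 (-1.22 to -1.04 and -1.30 to -0.93), and had values of -1.02 and -1.01 in ΔLEO1 cells. MAPK3, for ERK1, had ERCC-scaled counts of 8888, 7465 and 5602 in WT_10, 3337, 4961 and 3374 in WT_01, 10146, 6982 and 6976 in Leo1_10 and 3745, 2048 and 5923 in Leo1_01. It fell in ΔLEO1 cells (-1.04, adjusted p = 0.0475, SE 0.45), lost without library 2, 4, 5, 6, 7, 8, 10 or 11 (-1.15 to -0.73), and stood at -0.91 in wild-type cells. The TMM values of MAPK3 were 0.05 and 0.05.

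Of the 5 output genes none passed in wild-type cells, where 0.944% of all genes rose and 36.1% fell. In ΔLEO1 cells PHLDA1 alone passed, as lower, against 0.975% and 47.2%. The median log2 fold change of the 5 was 0.21 and -0.87, beside -0.97 and -1.05 for all genes. With TMM 2 rose and none fell in each genotype. Of all genes 16.0% rose and 16.6% fell in wild-type and 16.5% and 12.9% in ΔLEO1 cells. PHLDA1, an early response gene, had ERCC-scaled counts of 7129, 6781 and 6483 in WT_10, 5114, 6340.4 and 2808 in WT_01, 16409, 14843 and 9988 in Leo1_10 and 5897, 3041 and 7257 in Leo1_01. Its log2 fold change in ΔLEO1 cells was -1.35 (adjusted p = 0.018, SE 0.45), lost without library 4, 5, 10 or 11 (-1.42 to -1.06), with a TMM value of -0.20. The ETS factors ETV1, ETV4 and ETV5 had ERCC-scale values of 0.65, 0.21 and -1.03 in wild-type and 0.47, -0.87 and -1.01 in ΔLEO1 cells. With TMM, ETV1 rose by 1.70 (adjusted p = 2.10e-04) and 1.66 (adjusted p = 3.31e-04). IER3, an immediate early gene, was at 41.2, 41.1 and 183 CPM in WT_10, where library 3 stood apart, and at 153, 194 and 192 CPM in WT_01. In ΔLEO1 cells IER3 was at 50.7 ± 4.33 CPM in Leo1_10 and 128 ± 34.1 CPM in Leo1_01 (SD, n = 3). An opposite-strand gene covers 26.5% of its exons.

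To ask how the ΔLEO1 clone differed from the parental line, ΔLEO1 was compared with wild-type cells in each serum. In 10% serum 4 members were higher and 4 lower, where 4.2% and 4.64% of all genes were. In 0.1% serum 2 were higher and 6 lower, against 3.85% and 3.59% of all genes. HBEGF and PDGFA were higher, and PDGFC, DUSP4, SPRY1 and IL17RD lower, in both sera and on both scales. HGF and DUSP5 were also higher in 10% serum, and NRG1 and PDGFD lower in 0.1% serum, where PDGFD passed the filter only through WT_01. These 10 are ligands or feedback inhibitors, which make up 21 of the 42 members tested; the wider list of pathway genes below had calls among receptors, adaptors or exchange factors and kinases too. On the TMM scale 8 were higher and 9 lower in 10% serum, against 17.7% and 21.8% of all genes, and 4 and 11 in 0.1% serum, against 15.4% and 17.6%; outside the ligands and inhibitors these were, in 10% serum, the receptors FGFR1 (-0.60) and MET (-0.49), the exchange factor SOS1 (-0.61) and the scaffold KSR1 (-1.06), all lower, and PHLDA1 (0.59), higher. In 0.1% serum they were PDGFRB (-0.32) and SOS1 (-0.56), lower, and the adaptor GRB2 (0.30), higher. The quasi-likelihood test called 3 higher and 4 lower in 10% serum, against 3.81% and 4.2% of all genes, and 2 and 6 in 0.1% serum, against 3.49% and 3.41%. ERCC-scaled libraries of the genotypes did not overlap, higher or lower, for 10 and 4 members in 10% serum (23.7% and 6.94% of all genes) and 2 and 5 in 0.1% serum (4.64% and 4.83%). The count of 4 higher in 10% serum became 1 without library 2 or 4, 2 without library 3, 7 without library 11 and 8 without library 12. The counts in 0.1% serum became 1 higher without library 7 and 0 without library 9, and 3 lower without library 7 or 10 and 2 without library 8.

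**Figure D5:**
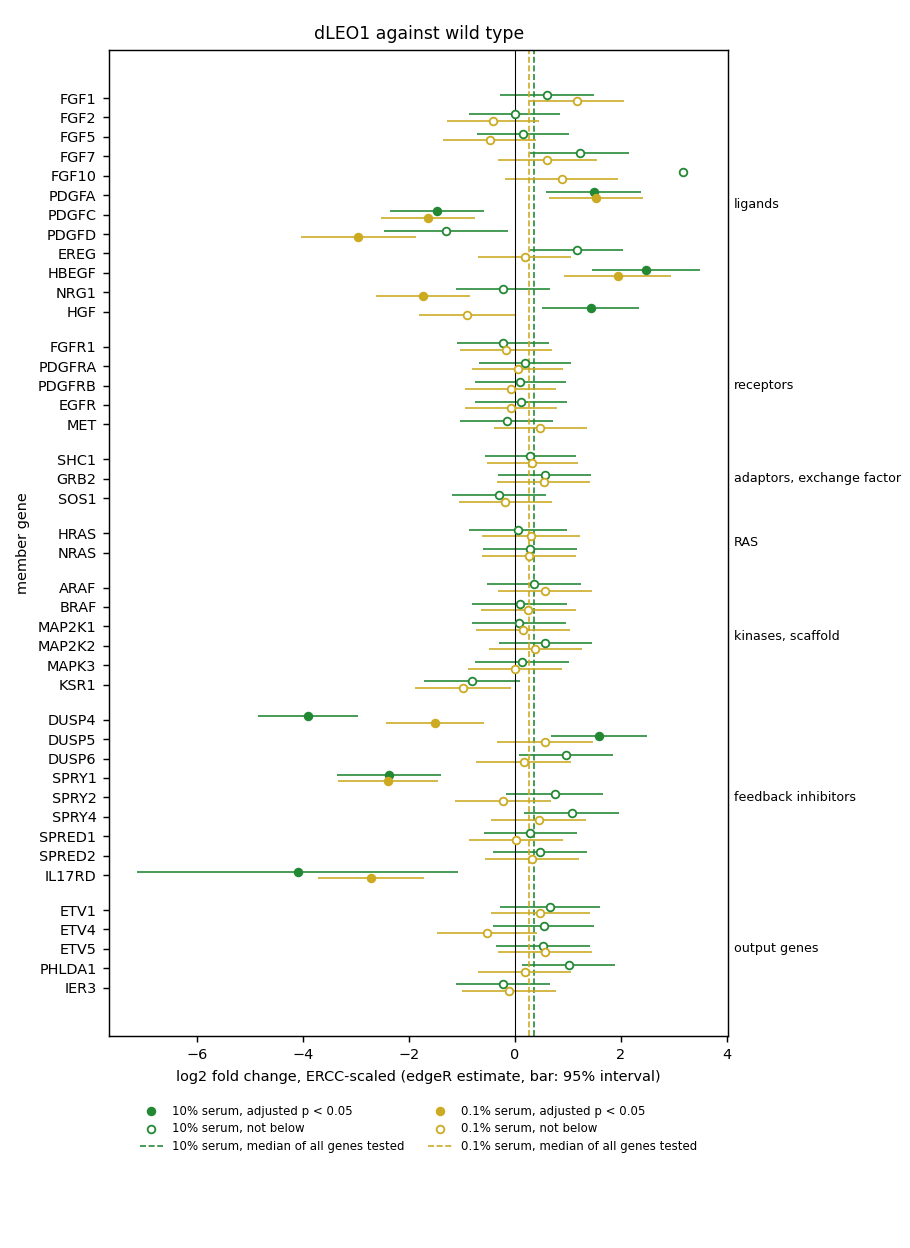
Rows are the member genes that passed the filter, ordered by role, and the x axis gives the log2 fold change of ΔLEO1 against wild-type cells on the ERCC scale in 10% serum (green) and 0.1% serum (yellow), with 95% intervals. Filled points passed an adjusted p of 0.05, and dashed lines mark the median of all genes tested, 0.35 and 0.27. FGF10 in 10% serum has no bar because WT_10 held no count. The filled points lie among the ligands and feedback inhibitors, which are 21 of the 42 genes drawn.

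Whether serum acted differently in each genotype was tested as an interaction, which passed for 0 of 42 members on the ERCC scale in edgeR, where 0.136% of all genes passed as higher and 0.0831% as lower; the quasi-likelihood test, which called 0.113% and 0.0604% of all genes, and DESeq2 also gave 0. At an unadjusted p under 0.05, 4 members passed, beside 2.49% of all genes. The count depended on library 12: without it 1 member passed as higher and 3 as lower, without library 11 1 passed as higher, and without libraries 3, 6, 9 and 12 1 passed as higher and 5 as lower. On the TMM scale 2 passed as higher and 3 as lower, against 3.06% and 1.02% of all genes. A member called in one genotype and not in the other is therefore not shown to differ between them on the ERCC scale.

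A wider list of 134 other genes of the pathway was set beside the members. Both lists were chosen with earlier results of these data known, so a difference between them cannot be read as a trait of the members. Of the wider list 95 genes passed the filter. In low serum 1 rose and 53 fell in wild-type cells, against 0.944% and 36.1% of all genes, and 4 rose and 51 fell in ΔLEO1 cells, against 0.975% and 47.2%, with a median log2 fold change of -1.14 and -1.11. Of the 26 other inhibitors of the pathway 0 rose and 10 fell in wild-type and 1 rose and 11 fell in ΔLEO1 cells. Their medians were -0.84 and -0.95, beside -0.97 and -1.05 for all genes. Of 18 other kinases and scaffolds 15 and 16 fell and none rose, with medians of -1.32 and -1.25. DUSP1, a phosphatase induced by growth factors, is named as a single example and does not stand for the rest of the list. It fell, with log2 fold changes of -1.86 and -2.18 in wild-type and ΔLEO1 cells. In ΔLEO1 against wild-type cells 7 were higher and 12 lower in 10% serum, where 4.2% and 4.64% of all genes were, and 5 and 8 in 0.1% serum, against 3.85% and 3.59%. By role, higher and lower, these were 2 and 2 of 14 ligands, 2 and 5 of 13 receptors, 1 and 3 of 18 adaptors or exchange factors, 2 and 1 of 18 kinases or scaffolds, and 0 and 1 of 26 inhibitors in 10% serum. In 0.1% serum they were 1 and 1 ligands, 1 and 4 receptors, 2 and 3 adaptors or exchange factors, and 1 and 0 kinases or scaffolds, with no inhibitor. None of the 6 other RAS genes passed in either serum. The interaction passed for 1 of the 95, PDGFB, a further PDGF ligand. PDGFB held 9, 18 and 34 counts in WT_10, 1, 5 and 0 in WT_01, 81, 98 and 131 in Leo1_10, and 160, 200 and 132 in Leo1_01. It was over 1 CPM in ΔLEO1 libraries alone and passed the filter only through these groups, where it is high. It is therefore described without a p-value. Its log2 fold change in low serum was -3.76 in wild-type and -0.23 in ΔLEO1 cells. The interaction was 3.53, which the likelihood ratio test called and the quasi-likelihood test did not. That call was lost when any of 8 of the 12 libraries was left out, with values from 2.78 to 5.57 over all 12.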

How the data were processed

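Polyadenylated RNA of 12 BJ-5ta libraries, with ERCC spike-in RNA added, was sequenced by the authors as stranded paired-end libraries. The authors demultiplexed the reads with bcl2fastq 2.20.0.422, aligned them with STAR (2.7.10a in the submitters' processing notes) to GRCh38 and counted them in exons with featureCounts 1.5.1; the deposited values are raw counts per gene and per ERCC transcript. The annotation release, the strand setting and the handling of reads that map to several places are not given in the sources used here.

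Counts were analysed in R 4.3.3 with edgeR 4.0.16 in a single fit of the 4 groups. The library size was the ERCC total times the TMM factor of the 92 ERCC transcripts, and genes over 1 CPM in at least 3 libraries were tested. The study's methods name edgeR's linear models without the form of the test; the main test here was the two-sided likelihood ratio test, with Benjamini-Hochberg adjustment over the 13236 genes tested and a threshold of 0.05; quasi-likelihood tests and DESeq2 1.42.0 were alternatives, as were other scalings, filters and each library left out. The scripts were tested on simulated data. The ERCC scale rests on equal spike-in per sample, so an error in the amount added to 1 library shifts all of its genes. RPKM was CPM per kilobase of merged GENCODE exons. Intervals for ratios of low counts cover counting error only. Fold changes used as bounds set a group without counts to 3 counts per library. All 43 genes are named, with every library printed for those called in at least 1 comparison. Neighbouring genes are those within 5 Mb. Promoter windows came from RefSeq, where 35 of the 43 genes had one. The members, the wider gene list and the marker lists were chosen with earlier results of these data known. Some items are not reported here.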

Additional observations from a re-analysis of the deposited data

Results flagged for a closer look

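The serum response differed between the genotypes for 5 members on the TMM scale (edgeR likelihood ratio test of the interaction, adjusted p under 0.05), whereas none passed on the ERCC scale. DUSP4 rose more in ΔLEO1 cells, with an interaction of 2.62 on the log2 scale, and stood at 2.39 on the ERCC scale (adjusted p = 0.137). HGF had an interaction of -2.10 with TMM, and its ERCC-scale adjusted p was 0.138. NRG1 had -1.50, SPRY2 -0.89 and MET 0.69 with TMM, each with an ERCC-scale adjusted p of 1. PDGFB, a ligand outside the 43 genes, passed on the ERCC scale with an interaction of 3.53, on 0 to 5 counts per library in WT_01. It was over 1 CPM in ΔLEO1 libraries alone and passed the filter only through them, so no p-value is given. Without libraries 3, 6, 9 and 12 its interaction was 2.40 and did not pass.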

How the results depend on the processing

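No paired analysis was possible because the replicate numbers run from 1 to 12 and no 2 groups share one. Libraries 3, 6, 9 and 12 were not called a batch in the labels. With a covariate for them the counts of members called stayed within 1.5 times. That covariate can take out only a shift that these libraries share. The summed proliferation genes were lower in libraries 3 and 6, and higher in 9 and 12, than in the rest of their group. The stable counts therefore do not show that the results are free of these libraries. With the covariate 8 values kept their direction but lost their call: MAP2K2 (wild-type serum), HBEGF, HGF, HRAS, MAPK3, KSR1, SPRY4 (ΔLEO1 serum) and DUSP4 (0.1% serum genotype). The members called higher and lower were 6 and 14 (wild-type serum), 5 and 19 (ΔLEO1 serum), 4 and 4 (10% serum genotype), 2 and 6 (0.1% serum genotype), 0 and 0 (interaction). They were 15 and 8 (wild-type serum), 14 and 9 (ΔLEO1 serum), 8 and 9 (10% serum genotype), 4 and 11 (0.1% serum genotype), 2 and 3 (interaction) with DESeq2 size factors on the gene counts. They were 14 and 9 (wild-type serum), 14 and 9 (ΔLEO1 serum), 8 and 9 (10% serum genotype), 4 and 11 (0.1% serum genotype), 2 and 3 (interaction) with TMM on the gene counts. They were 14 and 9 (wild-type serum), 13 and 9 (ΔLEO1 serum), 9 and 10 (10% serum genotype), 4 and 11 (0.1% serum genotype), 1 and 2 (interaction) with TMM and the quasi-likelihood test. They were 24 and 11 (wild-type serum), 17 and 11 (ΔLEO1 serum), 17 and 13 (10% serum genotype), 11 and 19 (0.1% serum genotype), 7 and 16 (interaction) with TMM and without libraries 3, 6, 9 and 12. They were 5 and 32 (ΔLEO1 serum), 9 and 5 (10% serum genotype), 2 and 13 (0.1% serum genotype), 1 and 5 (interaction) on the ERCC scale without those 4 libraries. They were 4 and 9 (ΔLEO1 serum), 9 and 4 (10% serum genotype), 1 and 4 (0.1% serum genotype) in fits to the 6 libraries compared. They were 3 and 8 (wild-type serum), 4 and 9 (ΔLEO1 serum), 1 and 3 (10% serum genotype), 1 and 5 (0.1% serum genotype) at an adjusted p under 0.01. They were 3 and 9 (wild-type serum) with no filter. Leaving out 1 library at a time gave 3 to 6 and 5 to 19 (wild-type serum), 4 to 5 and 8 to 31 (ΔLEO1 serum), 1 to 8 and 3 to 5 (10% serum genotype), 0 to 3 and 2 to 6 (0.1% serum genotype), 0 to 1 and 0 to 3 (interaction). Shares of all genes are given above for the main fit and for TMM on the gene counts. They are not given for the other settings listed here or for fits with libraries left out. Whether the counts of members under those settings differ from the share of all genes is therefore not shown. A value is counted as reversed where its sign changed and it was called under either setting. Log2 fold changes that reversed with DESeq2 size factors on the gene counts were, for wild-type serum PDGFC 0.69, PDGFRB 0.55, DUSP4 0.65, SPRED2 0.92 and, for ΔLEO1 serum PDGFC 0.65, HGF 0.12, FGFR1 0.56, PDGFRB 0.46, MAPK3 0.046, SPRY2 0.42, SPRY4 0.050, SPRED2 0.90. Log2 fold changes that reversed with TMM on the gene counts were, for wild-type serum PDGFC 0.69, PDGFRB 0.55, SPRED2 0.92 and, for ΔLEO1 serum PDGFC 0.65, HGF 0.12, FGFR1 0.56, PDGFRB 0.46, MAPK3 0.048, SPRY2 0.42, SPRY4 0.051, SPRED2 0.90. Log2 fold changes that reversed with TMM and the quasi-likelihood test were, for wild-type serum PDGFC 0.69, PDGFRB 0.55, SPRED2 0.92 and, for ΔLEO1 serum PDGFC 0.65, HGF 0.12, FGFR1 0.56, PDGFRB 0.46, MAPK3 0.048, SPRY2 0.42, SPRY4 0.051, SPRED2 0.90 and, for 10% serum genotype HRAS -0.31, MAP2K1 -0.31. Log2 fold changes that reversed with TMM and without libraries 3, 6, 9 and 12 were, for wild-type serum FGF2 0.88, PDGFC 0.75, EREG 0.52, HBEGF 0.91, NRG1 0.18, FGFR1 0.40, PDGFRB 0.63, EGFR 0.51, DUSP4 0.56, DUSP5 0.070, SPRY4 0.73, SPRED1 0.36, SPRED2 0.94, PHLDA1 0.74 and, for ΔLEO1 serum FGF2 0.50, PDGFC 0.49, HGF 0.082, FGFR1 0.68, PDGFRB 0.53, MAPK3 0.15, SPRY2 0.37, SPRY4 0.21, SPRED2 0.83, ETV4 0.39 and, for 10% serum genotype PDGFRB -0.32, BRAF -0.27, MAP2K1 -0.21, MAPK3 -0.20, IER3 0.22 and, for 0.1% serum genotype EREG -0.92, BRAF -0.39, SPRED1 -0.39 and, for interaction KSR1 0.53, IER3 -0.85. Log2 fold changes that reversed on the ERCC scale without those 4 libraries were, for 0.1% serum genotype EREG -1.29. Signs also changed without a call for 38 values with TMM, 37 with DESeq2 size factors, 36 and 22 in the other TMM settings, 42 on the ERCC scale without the 4 libraries, and 2 to 29 per library left out. Both TMM settings with a second change were added after the data had been seen. The cause of these changes was not tested. The median standard error of a member was 0.453 on the ERCC scale and 0.22 with TMM.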
